A study of Mus musculus with 6 samples.

Results

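Resting B cells carry a set of surface receptors that hold back signaling from the B cell antigen receptor (BCR). Many of these receptors act through an immunoreceptor tyrosine-based inhibitory motif (ITIM) in the cytoplasmic part, which the kinase Lyn phosphorylates and which then recruits the phosphatases SHP-1 or SHIP. The receptors read different cues: Fcgr2b binds IgG in immune complexes, Cd22 and Siglecg bind sialic acid, Cd72 binds CD100 (Sema4d) and Pirb binds MHC class I. The Fc receptor-like (FCRL) proteins are relatives of the Fc receptors, some with inhibitory and some with activating motifs.

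The levels of 9 such genes (Fcrl5, Fcrl1, Fcrla, Fcgr2b, Cd22, Cd72, Siglecg, Pirb and Cd5) were taken from the comparison of follicular B cells of CD23Cre+Myh9fl/fl mice with those of CD23Cre+Myh9wt/fl mice, 3 mice each, of the C57BL/6 strain. The 9 genes, of 20433 gene names, were chosen by their function and with their FPKM values in this same comparison known, so those values are given as a description. In both genotypes Cre is driven by the promoter of Fcer2a (CD23), a receptor that was also part of the sorting gate (B220+, AA4.1-, CD23+, CD21 low). The Myh9 allele has LoxP sites around exon 3, so wt/fl cells can lose 1 copy of Myh9, which encodes the heavy chain of myosin IIa, and fl/fl cells both. The comparison group is therefore haploinsufficient and not wild-type. The labels give no age for the sequenced mice, and the RNA was amplified before the libraries were made.

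The deposited table gives 1 value per genotype for each entry, in FPKM, a fragment count corrected for the length of the transcript and the size of the library, which the authors' software pooled over the 3 mice. Values per mouse were not analysed here, so none of the differences below has a replicate error or a test, and depth per sample is unknown. An entry stands for the transcripts with 1 coding sequence, and the 9 genes have 17 entries among 25017. Of the 9 symbols, 8 were found as written, and Pirb was found under its older symbol Lilrb3. Entries were summed per gene, and log2 ratios are fl/fl over wt/fl with 1 FPKM added to each value, which understates differences of low genes. A gene was compared when its FPKM averaged 1 or more over the genotypes, which held for 9866 genes. Where a pair of values is given, the first is wt/fl and the second fl/fl, and gene positions are those of the table, taken as mm9.

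Myh9 itself was at 50.6 FPKM (wt/fl) against 21.1 FPKM (fl/fl). All 10 B cell markers, among them Cd79b (1638 and 1739 FPKM), Cd79a (1098 and 1115 FPKM) and Cd37 (834 and 877 FPKM), were above 100 FPKM in both genotypes, and they summed to 6269 and 6533 FPKM. Markers of some other cells differed between the pools. The 12 neutrophil markers summed to 381 FPKM (wt/fl) against 68.4 FPKM (fl/fl), and 7 of the 8 compared were at least 1.5-fold lower in fl/fl, beside 1.53% of all compared genes. The 12 macrophage and monocyte markers summed to 91.0 and 62.0 FPKM, but to 18.4 and 17.1 FPKM without Lyz2. Summed levels were 30.5 and 20.6 FPKM for the 6 NK cell markers, 57.6 and 48.5 FPKM for the 5 plasma cell markers and 4.25 FPKM in each genotype for the 7 dendritic cell markers. Most of the plasma cell sum was Xbp1 (48.8 and 45.9 FPKM). The plasma cell genes Jchain (5.40 and 0.617 FPKM) and Sdc1 (2.30 and 1.13 FPKM) were at least 1.5-fold lower in fl/fl, and Tnfrsf17 was listed at 0 in both.

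The ITIMs are short and can be read in the coding sequences of the mouse genes (GENCODE M21, build GRCm38). The motif searched was I, V, L or S, any residue, Y, any 2 residues, then I, V or L, on the cytoplasmic side of the most hydrophobic 19-residue window. It was present in 7 of the 9 genes, with 15 matches in all: 4 in Cd22, 3 in Siglecg, 3 in Pirb, 2 in Cd72 and 1 each in Fcgr2b, Fcrl5 and Cd5. Fcrl1 had no match, and Fcrla, an intracellular protein without a transmembrane segment, was not searched. A match is a description of the letters and does not show that the site is used. One match per receptor and all 4 of Cd22, the gene with the most, are printed to show what the inhibitory receptors have in common. They are written 5′ to 3′ on the coding strand, with the 18 bases of the motif in capitals, and the GRCm38 position and strand are those of the motif. Each motif lies within 1 coding exon except that of Cd5, which spans 2.
Fcrl5, coding bases 1678 to 1719, chr3:87457384-87457401, plus strand: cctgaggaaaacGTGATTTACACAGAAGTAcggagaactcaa
Fcgr2b, coding bases 937 to 978, chr1:170961071-170961088, minus strand: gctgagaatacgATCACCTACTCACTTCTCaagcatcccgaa
Cd22, coding bases 2329 to 2370, chr7:30867494-30867511, minus strand: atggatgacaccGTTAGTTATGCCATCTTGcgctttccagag
Cd22, coding bases 2431 to 2472, chr7:30867033-30867050, minus strand: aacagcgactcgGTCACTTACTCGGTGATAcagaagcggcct
Cd22, coding bases 2509 to 2550, chr7:30866600-30866617, minus strand: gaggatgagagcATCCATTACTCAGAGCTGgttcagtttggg
Cd22, coding bases 2569 to 2607, chr7:30866540-30866557, minus strand: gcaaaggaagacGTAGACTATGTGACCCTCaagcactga
Cd72, coding bases 1 to 42, chr4:43454498-43454515, minus strand: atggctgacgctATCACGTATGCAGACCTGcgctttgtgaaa
Siglecg, coding bases 1957 to 1998, chr7:43417979-43417996, plus strand: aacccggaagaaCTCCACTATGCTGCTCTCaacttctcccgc
Pirb, coding bases 2362 to 2403, chr7:3712786-3712803, minus strand: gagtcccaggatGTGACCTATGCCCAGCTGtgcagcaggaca
Cd5, coding bases 1372 to 1413, chr19:10719622-10720230, minus strand: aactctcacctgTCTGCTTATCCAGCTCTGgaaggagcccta

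**Figure D1:**
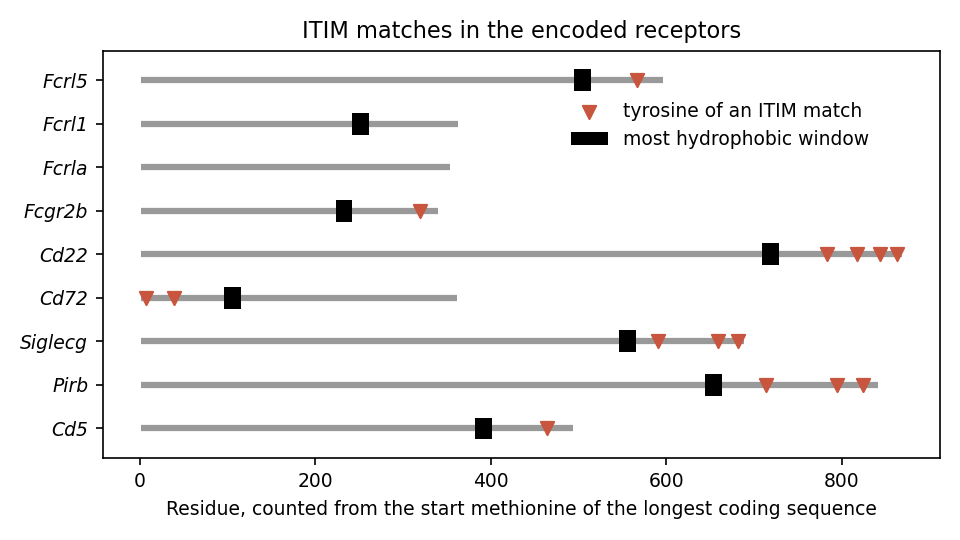
ITIM matches along the longest coding sequence of each gene, with the residue number on the x axis, the gene on the y axis, black boxes for the most hydrophobic 19-residue window and triangles for the tyrosine of each match. In Cd72 the 2 matches precede the window, and in Cd22 all 4 follow it.

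The receptors spanned a wide range of levels in follicular B cells. Cd22 was the most abundant, with a mean of 304 FPKM over the genotypes, and was followed by Cd72 (286 FPKM), Fcrl1 (237 FPKM), Fcrla (185 FPKM) and Siglecg (172 FPKM). These 5 genes were above at least 96.6% of the compared genes. Fcgr2b was intermediate with 65.1 FPKM, Pirb (15.6 FPKM) and Fcrl5 (9.50 FPKM) were lower, and Cd5 was at 0.807 FPKM, under the limit for comparison. Whether neighbors in this order differ could not be judged without values per mouse. The order of the 9 genes was the same in both genotypes except that Fcrla was above Siglecg in wt/fl and below it in fl/fl.

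**Figure D2:**
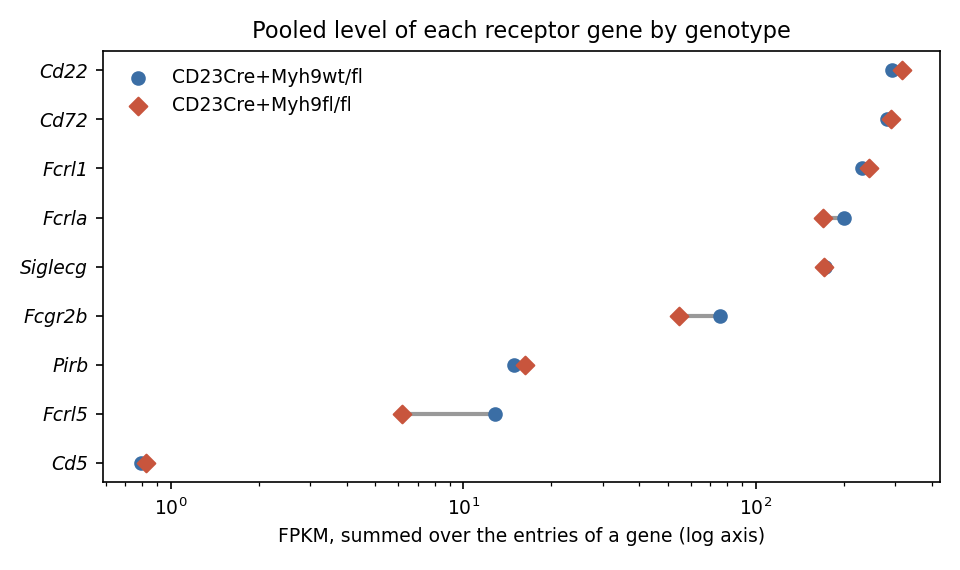
Pooled level of each receptor gene in FPKM (log x axis), with circles for wt/fl, diamonds for fl/fl and a line joining them; there are no error bars because the table holds 1 value per genotype. Fcrl5 has the longest line (12.8 and 6.20 FPKM), then Fcgr2b (75.5 and 54.6 FPKM).

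Of the 8 compared receptor genes, 1 was at least 1.5-fold lower in fl/fl cells (Fcrl5) and 0 were at least 1.5-fold higher. Of all 9866 compared genes, 1.53% were at least 1.5-fold lower and 0.791% at least 1.5-fold higher. Over the 8 genes the log2 ratio had a median of 0.01, beside 0.0026 for all compared genes. Values above and below wt/fl were equally frequent, with 4 genes each. For 6 of the 8 the log2 ratio lay within 0.25 of 0, as it did for 82.7% of all compared genes. The genes were chosen with these values known, so nothing is read from the counts.

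**Figure D3:**
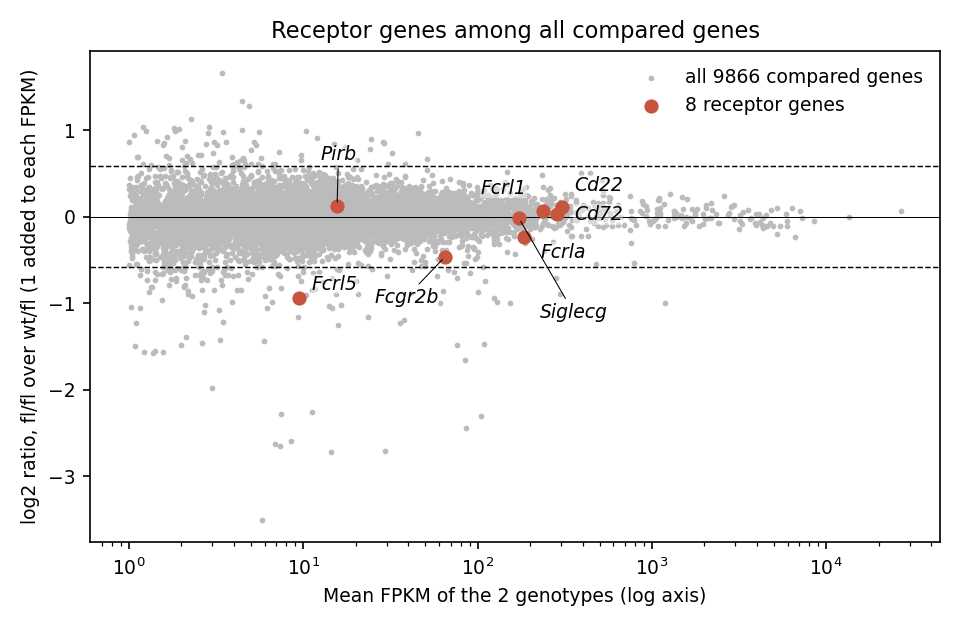
Log2 ratio of fl/fl over wt/fl (y axis) against the mean FPKM (log x axis) for all 9866 compared genes in gray and the 8 compared receptor genes in red; dashed lines mark 1.5-fold. Fcrl5 lies under the lower line at −0.94, and the other 7 receptor genes lie between the lines.

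Fcrl5 (chromosome 3 from 87239704 to 87304600) encodes an FCRL protein with an ITIM that is known from marginal zone and B-1 cells of the mouse. It was at 12.8 FPKM (wt/fl) against 6.20 FPKM (fl/fl), 48.4% of the haploinsufficient level and a log2 ratio of −0.94. Of all compared genes, 48 had a ratio as low or lower. Among the 3887 genes within a factor of 2 of its mean level, a range set after its value was seen, 1.00% were at least 1.5-fold lower, 0.463% at least 1.5-fold higher and 1.47% either. Nearly all of the signal was in 1 of its 2 entries, at 12.8 and 6.16 FPKM, and the other was at 0.0506 and 0.0390 FPKM. Both annotated coding sequences, of 1791 and 1527 bases, hold the printed ITIM. In a bulk sample, fewer cells of a type and less RNA per cell cannot be told apart. The 6 markers of marginal zone B cells summed to 199 FPKM (wt/fl) against 136 FPKM (fl/fl), of which Plac8 made up most. Plac8 (138 and 82.1 FPKM) and Cd9 (4.61 and 2.52 FPKM) were at least 1.5-fold lower, and Dtx1 was at 27.3 and 20.6 FPKM. The other markers of these cells had ratios above 1, namely Cd1d1 (15.1 and 15.7 FPKM), Tm6sf1 (11.9 and 12.6 FPKM) and S1pr3 (2.35 and 2.83 FPKM). The 5 B-1 cell markers summed to 8.72 and 6.77 FPKM, with none at 0. All 5 had lower values in fl/fl, as did 49.5% of all compared genes. Of these markers, Spn was at 3.99 and 3.50 FPKM, Itgam at 2.22 and 1.33 FPKM, and the regulator Bhlhe41 at 1.70 and 1.42 FPKM. The other 2 averaged under 1 FPKM, the limit for comparison. The gate (CD23+, CD21 low) is one that marginal zone B cells, with high CD21 and low CD23, fall outside, but the purity of the sort was not examined here. The paper reports fewer marginal zone B cells in the spleens of CD23Cre+Myh9fl/fl mice. In their peritoneal cavity it reports fewer B1b cells but similar numbers of B1a cells. The part of marginal zone B cells and B-1 cells in the Fcrl5 value was not tested.

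Fcrl1 (chromosome 3 from 87180309 to 87196055) is the neighbor of Fcrl5, 43.6 kb away, and encodes an FCRL protein that is known as an activating coreceptor. Its summed level was 231 FPKM (wt/fl) against 243 FPKM (fl/fl), a log2 ratio of 0.07. The neighboring genes thus had unlike values, −0.94 for Fcrl5 and 0.07 for Fcrl1. Fcrla (chromosome 1 from 172847725 to 172857714), which encodes an FCRL protein kept inside the cell, was at 200 FPKM (wt/fl) against 170 FPKM (fl/fl), a log2 ratio of −0.23. Of all compared genes, 10.4% had a ratio as low or lower.

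Fcgr2b (chromosome 1 from 172890689 to 172906202), 33.0 kb from Fcrla, encodes the inhibitory IgG receptor FcγRIIb, the Fcγ receptor of B cells. It was at 75.5 FPKM (wt/fl) against 54.6 FPKM (fl/fl), 72.3% of the haploinsufficient level and a log2 ratio of −0.46. This was short of 1.5-fold, and 2.65% of all compared genes had a ratio as low or lower. Both of its entries were lower, at 56.6 and 38.8 FPKM for the more abundant and 18.95 and 15.8 FPKM for the other. The annotated coding sequences of Fcgr2b differ by a 141-base stretch (coding bases 758 to 898 of the longer, chr1:170963325-170963465 of GRCm38, minus strand) in the cytoplasmic part, upstream of the ITIM, which both retain. It is printed because it is all that separates the isoforms, known as b1 and b2.
Fcgr2b, stretch of the longer isoform: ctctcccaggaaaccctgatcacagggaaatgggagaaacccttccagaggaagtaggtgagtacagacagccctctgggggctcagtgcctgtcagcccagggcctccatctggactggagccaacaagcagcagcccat
Which entry belongs to which isoform is not given by the table. Fcgr2b is also expressed by myeloid cells. Of their activating Fcγ receptors, Fcgr3 was at 1.06 FPKM (wt/fl) against 0.613 FPKM (fl/fl), Fcgr4 at 0.561 and 0.134 FPKM, and Fcgr1 at 0.0556 and 0.0821 FPKM. Fcer1g, which encodes a signaling chain of such receptors, was at 16.4 and 11.4 FPKM. The extracellular parts of Fcgr2b and Fcgr3 are closely related, so how fragments were assigned between them is uncertain. Of the neutrophil markers, S100a9 was at 175 and 34.5 FPKM and Camp at 15.3 and 1.70 FPKM. Elane and Mpo, under the limit for comparison, were at 0.119 and 0.0916 FPKM in wt/fl and listed at 0 in fl/fl. Of the 6 compared macrophage and monocyte markers, 4 had lower values in fl/fl and 2 higher, beside 49.5% of all compared genes lower. Those other than Lyz2 (72.6 and 44.9 FPKM) were low. Cd68 was at 7.41 and 6.10 FPKM and Csf1r at 1.42 and 1.39 FPKM. The 2 higher ones were C1qb at 1.61 and 2.39 FPKM and C1qc at 1.603 and 2.04 FPKM. The part of myeloid cells in the Fcgr2b value was not tested.

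The sialic acid receptors had close values in both genotypes. Cd22 (chromosome 7 from 31650423 to 31665361), the main sialic acid-binding inhibitor of the BCR on follicular B cells, was at 292 FPKM (wt/fl) against 316 FPKM (fl/fl), a log2 ratio of 0.11. Siglecg (chromosome 7 from 50663650 to 50673719), whose product restrains calcium signaling chiefly in B-1 cells, was at 172 and 171 FPKM, a log2 ratio of −0.01. Of all compared genes, 95.7% differed at least as much as Siglecg.

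Cd72 (chromosome 4 from 43455149 to 43467498), a C-type lectin-like receptor whose N terminus lies in the cytoplasm, was at 282 FPKM (wt/fl) against 289 FPKM (fl/fl), a log2 ratio of 0.04. Pirb (chromosome 7 from 3664107 to 3671984), a receptor shared by B cells and myeloid cells, was at 14.9 and 16.3 FPKM, a log2 ratio of 0.12. Its activating relatives are close copies of it, so the split of fragments among them is uncertain. The most abundant of these were Pira2, at 9.46 and 12.9 FPKM, and Pira1, at 3.17 and 5.58 FPKM. Cd5 (chromosome 19 from 10792633 to 10813464), a marker of B-1a and T cells that dampens antigen receptor signaling, was at 0.790 and 0.824 FPKM. The 10 T cell markers summed to 214 and 200 FPKM, of which Cd2 made up most (188 and 176 FPKM). Of the T cell receptor complex, Cd3d was at 3.02 and 2.31 FPKM, Cd3e at 1.83 and 1.96 FPKM, and Cd3g at 1.96 and 1.26 FPKM. The part of T cells and B-1 cells in the Cd5 value was not tested.

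Several of the genes have more than 1 entry, and a level sum can hide unlike entries. Cd72 has 4 entries. Its most abundant entry held 42.7% of the gene's FPKM (wt/fl) against 36.5% (fl/fl), and the second held 25.5% and 30.2%. Of the others, 1 was higher in fl/fl (56.4 and 70.5 FPKM) and 1 lower (33.2 and 25.8 FPKM). All 4 annotated Cd72 coding sequences hold both ITIM matches. The one of 903 bases had no hydrophobic window past the limit set, and the table does not say which entry it is. In Fcrla, the entry with the higher level was at 114 and 86.7 FPKM and the other at 85.5 and 83.2 FPKM, so most of the difference in the Fcrla sum lay in 1 entry. The smallest Fcrl1 entry was at 4.06 FPKM (wt/fl) against 9.91 FPKM (fl/fl), 2.44-fold higher, but made up only 1.76% and 4.07% of the gene. Of the 17 entries, 15 averaged 1 FPKM or more, and of these 1 was at least 1.5-fold higher in fl/fl (the smallest of Fcrl1) and 1 at least 1.5-fold lower (the main one of Fcrl5). Of all 11411 such entries, 2.86% were at least 1.5-fold higher, 3.37% at least 1.5-fold lower and 6.22% either. The largest move of a share was 6.25 percentage points in Cd72 and 6.16 in Fcrla, and 47.4% of the 1767 compared genes with more than 1 entry had a move at least as large as that of Cd72. Among the 260 of these that averaged 50 FPKM or more it was 21.2%, a limit chosen after the values were seen. How FPKM is divided among entries is an estimate of the authors' software, and its error is not known.

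**Figure D4:**
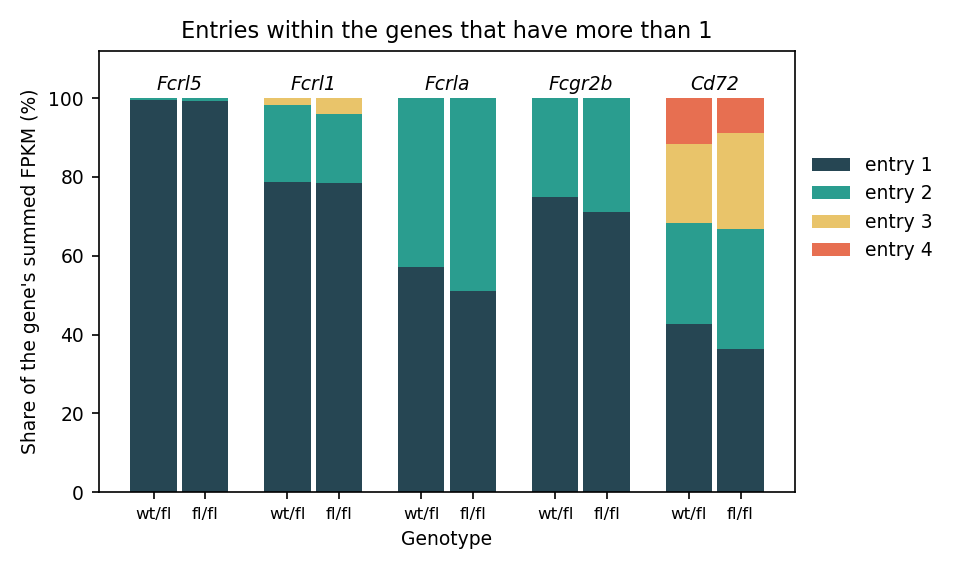
Share of a gene's summed FPKM (y axis, percent) held by each entry in wt/fl and fl/fl (x axis) for the 5 genes with more than 1 entry, numbered from the most abundant. In Cd72 the first entry covers 42.7% (wt/fl) against 36.5% (fl/fl), and in Fcrl5 the first entry covers 99.6% and 99.4%.

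The genes that act with these receptors were described by lists that were also written with earlier results known. Of the 13 compared ITIM effectors, 0 were at least 1.5-fold higher or lower, and their median log2 ratio was −0.02 (range −0.25 to 0.28), beside 2.32% of all compared genes past 1.5-fold in either direction. Lyn, the kinase that phosphorylates the ITIMs, was at 175 FPKM (wt/fl) against 159 FPKM (fl/fl), and Ptpn6, which encodes SHP-1, at 311 and 335 FPKM. Csk, which restrains Src-family kinases, was at 177 and 168 FPKM, and Inpp5d, which encodes SHIP, at 60.9 and 54.5 FPKM. Of the 14 activating BCR genes, 0 passed 1.5-fold, with a median of 0.01 and with the kinase gene Syk lowest (169 and 127 FPKM, log2 ratio −0.41). Cd79b and Cd79a, which encode the signaling chains of the BCR and whose levels are given above, were among their most abundant members.

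Among 15 ligands and sialic acid genes, 0 passed 1.5-fold, beside 2.32% of all compared genes, and the median was −0.05. B2m (4531 and 4128 FPKM), H2-K1 (1574 and 1459 FPKM) and H2-D1 (832 and 778 FPKM), which encode the MHC class I ligands of PIR-B, were the most abundant. St6gal1, whose enzyme makes the sialic acid linkage that CD22 prefers, was at 84.7 and 94.8 FPKM, Cmah, whose enzyme makes the sialic acid form preferred by mouse CD22, at 78.2 and 77.9 FPKM, and Sema4d at 84.1 and 79.3 FPKM.

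Of 14 other Fc receptor genes, 6 could be compared and 0 passed 1.5-fold, with a median of 0.28. Of all compared genes, 2.32% passed 1.5-fold in either direction and 0.791% were at least 1.5-fold higher, with a median of 0.0026. The most abundant were Fcmr, the IgM Fc receptor, listed under its older symbol Faim3 (824 and 932 FPKM), Fcer2a, which encodes CD23 and was used for the sort (439 and 588 FPKM), and Fcgrt, the neonatal Fc receptor (16.3 and 17.5 FPKM). Fcer1g, the signaling chain of activating Fc receptors in myeloid and NK cells, was at 16.4 and 11.4 FPKM. Of 18 other ITIM receptor genes, 10 could be compared, with a median of 0.08, and 1 passed 1.5-fold, Lilrb4, at the low level of 1.15 and 2.25 FPKM. Btla (287 and 345 FPKM), Pecam1 (71.0 and 80.0 FPKM) and Milr1 (15.3 and 17.5 FPKM) were the most abundant. With 1 pooled value per genotype, a difference between any of these lists and the 9 receptor genes was not tested.

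**Figure D5:**
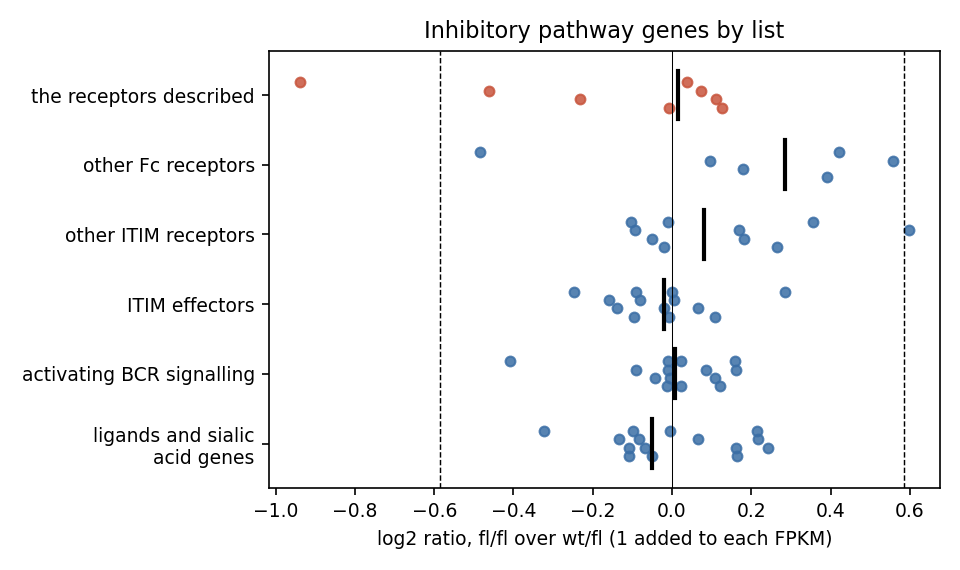
Log2 ratio of fl/fl over wt/fl (x axis) of each compared gene in the receptor set (red) and in 5 lists (blue), with the list on the y axis, a black bar at each median and dashed lines at 1.5-fold. Fcrl5 (−0.94) and Lilrb4 (0.60) lie outside the dashed lines.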

How the data were processed

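Follicular B cells were sorted from 6 mice for RNA sequencing, 3 CD23Cre+Myh9wt/fl and 3 CD23Cre+Myh9fl/fl. The authors deposited 1 table in the layout of Cuffdiff, whose FPKM values are pooled by genotype, so the precision of a value is unknown. The submitters' processing notes name Bowtie, TopHat and Cufflinks, without versions. The notes name mm10 and GRCm38, but the start of 0 of the 9 genes equals that in GRCm38.p6, and gene positions are taken as mm9, with no mm9 genome at hand to check them against. Starts in the table count from 0 and were raised by 1. The table also holds the authors' fold changes, test statistics, p-values and q-values, which were not used.

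The plan allowed for values per sample, but with 1 pooled value per genotype and the authors' own tests set aside, no test was run. FPKM was summed per gene name, leaving out 44 entries whose symbol reads as a date. Log2 ratios had a pseudocount of 1, genes had a mean of at least 1 FPKM, and a difference counted as called at 1.5-fold. The 9 genes and all 14 further lists (5 of pathway genes and 9 of cell type markers) were chosen with earlier results of these data known. Named genes were the 9 genes, Myh9 and, in each list, the 3 of highest mean FPKM, those past 1.5-fold and defining markers at 0; some marker lists are given by sums and the genes beside a result. Fcgr1, Fcgr3, Fcgr4, Fcer1g, Inpp5d, Syk, St6gal1, Cmah, Sema4d, Tm6sf1, S1pr3, Bhlhe41, Csf1r, C1qb, C1qc, the Cd3 genes and the Pira genes were named outside this rule, with their values seen, and 1 gene that the rule names is not reported here. Coding sequences came from GENCODE M21 and were translated with Biopython 1.88; a hydrophobic window had a mean Kyte-Doolittle hydropathy of at least 1.6, past residue 40. Ratios were computed with pandas 2.3.3 in Python 3.11.15. They were also run on simulated data with known changes and no noise, which checks the arithmetic and not the accuracy of a call. Alternatives were other pseudocounts, filters, scalings, thresholds and the highest entry in place of the sum. RefSeq (GRCm38.p6) gave older symbols.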

Additional observations from a re-analysis of the deposited data

How the results depend on the processing

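No paired analysis was possible because the table holds 1 pooled value per genotype, and for the same reason leaving out each replicate was not run. Values with no replicate error were taken as unmoved within 0.1 on the log2 scale, and counts within 1.5 times. Of the recomputed values for the receptors and lists, 134 stayed within these limits, 16 moved and 0 past 1.5-fold changed direction. Some of the 134 could not have moved. A gene with 1 entry, such as Cd22, has the same value by the sum and by the highest entry. The log2 ratio of Fcrl5 ranged from −0.94 to −1.03. With the highest entry in place of the sum, the log2 ratio was −0.39 for Fcrla and −0.19 for Cd72, and the median of the receptors −0.10. At a lower threshold, a log2 ratio of 0.32, 2 receptors were lower (Fcrl5 and Fcgr2b), 4 other Fc receptors, 2 other ITIM receptors, 1 activating BCR gene and 1 ligand or sialic acid gene were past it in either direction, and so were 10.1% of all compared genes. At a threshold of 2-fold, 0 receptors and 0 other ITIM receptors passed, and 0.497% of all compared genes; Fcrl5 was 2.06-fold lower with nothing added to the values (log2 ratio −1.05) and so stayed under 2-fold through the pseudocount of 1. For the other Fc receptors, 1 gene passed 1.5-fold with a pseudocount of 0.1 or 0.5 and 1 with no filter on low values, and the median was 0.10 with no filter and 0.18 at a mean of at least 5 FPKM. At that mean, 0 other ITIM receptors passed. With a pseudocount of 0.1, 4.196% of all genes passed, and 1.20% at a mean of at least 5 FPKM. How precise low values are could not be judged, since depth is unknown.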

Other observations

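Fcgr2b and Fcrla lie in a cluster of Fc receptor genes on chromosome 1, and the 5 members of that cluster within 250 kb, Fcgr2b included, all had lower values in fl/fl, as did 49.5% of all compared genes. Beside Fcrla and Fcgr2b these were Fcrlb, at 0.924 FPKM (wt/fl) against 0.230 FPKM (fl/fl), Fcgr4, at 0.561 and 0.134 FPKM, and Fcgr3, at 1.06 and 0.613 FPKM. The last 3 genes have means under 1 FPKM, so they are not among the compared genes behind the 49.5%, and their ratios are uncertain. Other genes of that stretch went either way, with Dusp12 at 20.5 and 17.9 FPKM, Atf6 at 21.99 and 23.9 FPKM, and Sdhc at 40.4 and 43.5 FPKM. These genes were chosen by position after the values of Fcgr2b had been seen, and no test was run. Around Fcrl5, the macrophage gene Cd5l was at 2.35 and 2.10 FPKM, Etv3 at 18.3 and 16.6 FPKM, Arhgef11 at 7.53 and 8.10 FPKM and Pear1 at 5.02 and 6.23 FPKM, and Fcrls was listed at 0 in both genotypes.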
